A study of Chlorocebus aethiops with 3 samples.

Results

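The messages described here are those of the general translation factors, the proteins that load ribosomes onto mRNAs, move them along and release the finished chain. They were chosen as 50 human RefSeq accessions of the EIF1, EIF2, EIF2B, EIF3, EIF4, EIF5, EIF6, EEF1 and EEF2 gene families, of the 4E-BPs, and of EEF2K, ETF1, GSPT1, PABPC1 and TPT1. Probes for 44 of the 50 accessions were found among the 32695 systematic names of the array, some of which are probe names. The other 6 accessions were not analysed here. Each accession was represented by its probe with the highest mean log2 spot signal of both channels, out of 87 probes for the 44 accessions and 41000 probes in all. The scanner tables give an accession and no gene name for a probe, and no annotation table was used here. Members are therefore named by accession, and neither a gene name nor the role of a single member is given.

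RNA came from heavy polysomes, the fast-sedimenting part of a 15% to 45% sucrose gradient where mRNAs carry many ribosomes. The cells were COS-7, an African green monkey kidney line of fibroblast shape that carries the SV40 large T antigen. Knockdown cells had been transfected with siRNAs against the coding region of RNA helicase A (RHA), and control cells with scrambled siRNA, in both cases at 0.5 nM and in repeated rounds. All samples shared 4 serum-free hours, 24 hours of recovery and 10% serum. Each of 3 arrays, 1 for each biological replicate, held knockdown RNA in Cy5 and control RNA in Cy3. All arrays had the same dye orientation and lay on the same slide, so the knockdown and a dye effect cannot be told apart. Human probes were used on monkey RNA. The labelled cell line was not checked against marker genes, because the tables do not name genes.

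Translation begins when the EIF2 complex, recharged by its exchange factor EIF2B, brings the initiator tRNA to the small ribosomal subunit, to which EIF3, EIF1 and EIF5 also bind. The cap-binding protein EIF4E, the scaffold EIF4G and the helicase EIF4A recruit the mRNA, the 4E-BPs block that recruitment by holding EIF4E, and PABPC1 binds the poly(A) tail. EEF1 brings charged tRNAs to the elongating ribosome, EEF2 moves the ribosome forward and is inhibited by EEF2K, and ETF1 with GSPT1 ends translation at the stop codon. Many messages of translation factors are themselves under translational control in mammalian cells, among them those that begin with a terminal oligopyrimidine tract. RHA, encoded by DHX9, is a DEAH-box helicase known to promote the translation of selected mRNAs.

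The knockdown channel had 45.5% to 53.1% of the array's probes well above background, and the control channel 37.5% to 50.7%. Of the 18142 probes tested, 3331, or 18.4%, passed an adjusted p of 0.05 in limma. Both tested probes of the RHA message itself (NM_001357) were below 0 on all 3 arrays and did not pass. Probe A_23_P97749 had log2 ratios of -0.041, -0.20 and -0.60 (limma adjusted p = 0.217), and A_24_P36847 had -0.12, -0.12 and -0.76 (limma adjusted p = 0.210). A further probe, A_24_P808534, was too dim to be tested and had -0.29, 0.13 and -0.12. A log2 ratio here is the normalised signal of knockdown over control RNA on 1 array, and a positive value means more of that RNA in the heavy polysomes of knockdown cells relative to probes of like brightness. In such bulk RNA, a smaller amount of a message per cell, fewer ribosomes on it and fewer cells that make it cannot be told apart, and total RNA was not analysed here.

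The translation factor messages moved in both directions after knockdown under loess normalization, while median centring of the arrays left 19 risen and 0 fallen. Of the 44 accessions, 8 rose, 6 fell and 30 did not pass the test (limma, adjusted p threshold of 0.05 over all tested probes). That is 31.8% of the accessions, against a background of 18.4% of all tested probes. In single directions 18.2% rose and 13.6% fell, where the background was 9.72% and 8.64%. Of the called accessions, 3 rose and 3 fell by at least 2-fold, where 2.74% and 1.84% of all tested probes did. The median log2 ratio was 0.12 over the 44 accessions and 0.018 over all tested probes, and the middle of the distribution ran from -0.35 to 0.52 (quartiles) against -0.20 to 0.23. The backgrounds of the 2-fold counts, medians and quartiles were not matched for brightness. Without replicate 2 limma called 0 accessions in either direction, with 11 above 0 and 8 below it among those whose unadjusted p was under 0.05. The same held for the whole array, where 0 of 18142 probes were called without replicate 2, so this loss is not one of the translation factors in particular. With replicate 1 left out, 4 accessions rose and 5 fell, where 1275 and 1120 of all tested probes did. Without replicate 3, 9 rose and 6 fell, where 1502 and 1419 of all tested probes did.

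The share of calls has to be read against brightness, because bright probes were called more often than dim ones. All 44 accessions were well above background in both channels of all 3 arrays. When the tested probes were put into 5 classes of equal size by mean log2 spot signal, 29 of the 44 accessions lay in the brightest class, 9 in the next, 4 in the middle and 2 in the second dimmest. In the brightest class 36.4% of all tested probes were called, against 1.05% in the dimmest, and 7 of the 29 accessions there rose and 5 fell. With the background weighted by the accessions' classes, 31.9% of probes were called, 16.2% upward and 15.7% downward. The share of the translation factors that was called, 31.8%, was thus near that of other probes as bright.

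**Figure D1:**
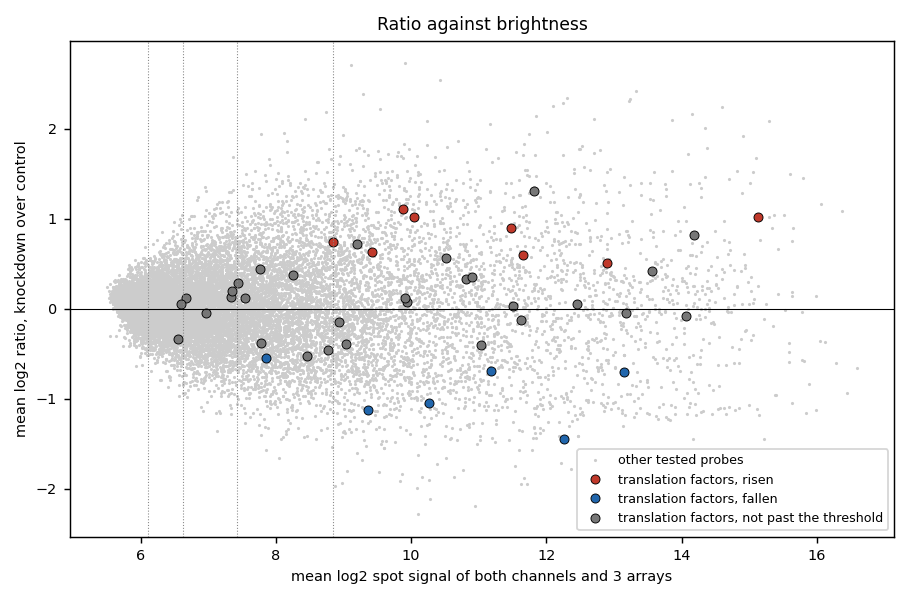
Mean log2 ratio of knockdown over control (vertical axis) against the mean log2 spot signal of both channels (horizontal axis) for all 18142 tested probes (grey) and the 44 translation factor accessions (large points, red risen, blue fallen, dark grey not past the threshold). Dotted lines separate the 5 brightness classes. Of the 44 accessions, 29 lie right of the last line, where 36.4% of all probes were called.

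**Figure D2:**
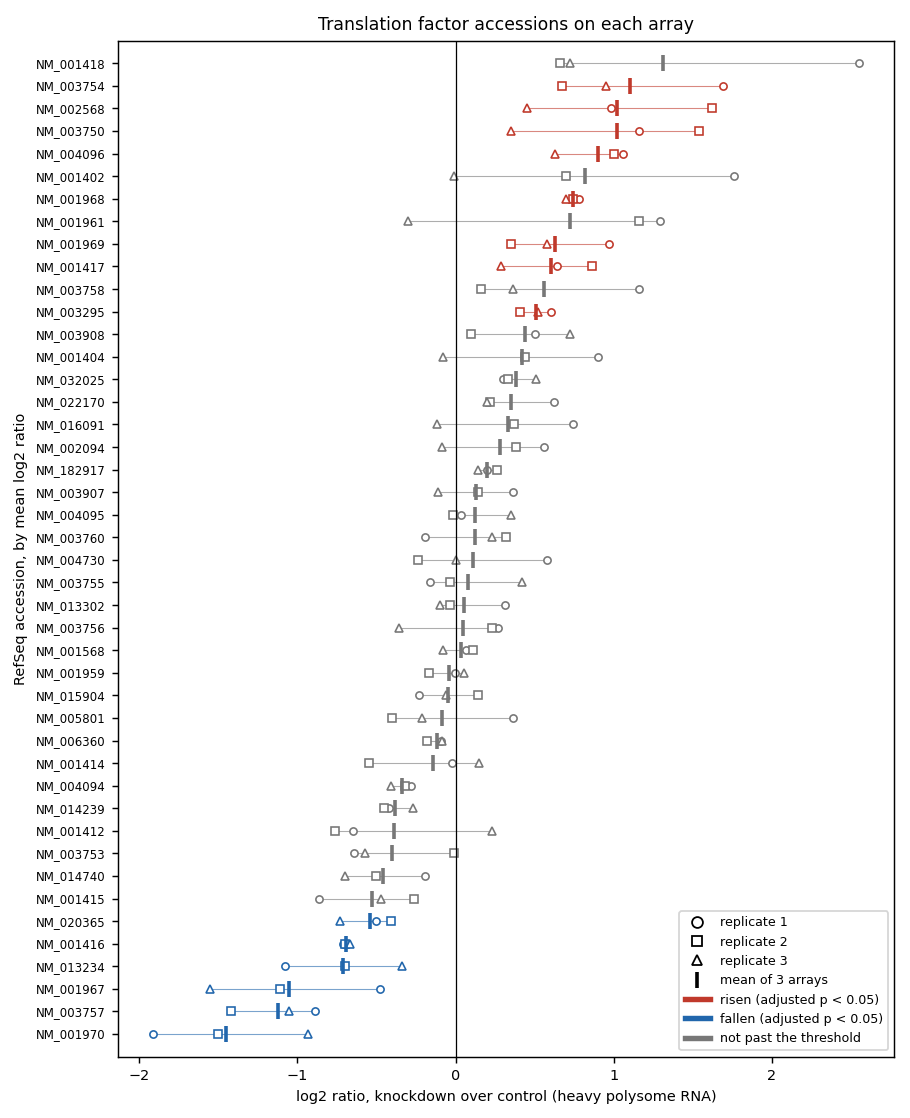
Log2 ratio of knockdown over control on each of the 3 arrays (circle, square and triangle for replicates 1, 2 and 3) and the mean (bar) for the 44 accessions, in order of the mean. The 8 risen accessions (red) and the 6 fallen ones (blue) lie on one side of 0 on every array, while 18 of the 30 others lie on both sides. With median centring in place of loess, the fallen NM_001416 and NM_013234 lay above 0.

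Among the risen messages, NM_003754 had the largest mean ratio. Its normalised signals were 1376, 1358 and 1602 in knockdown RNA of replicates 1, 2 and 3, and 428, 851 and 826 in control RNA. Knockdown and control signals did not overlap, and the lowest control value was that of replicate 1. The arrays gave log2 ratios of 1.69, 0.67 and 0.95, averaging 1.1 ± 0.52 (SD, n = 3), a 2.15-fold higher level (limma adjusted p = 0.0290). A second probe of this accession, A_23_P142776, had a mean of 0.31 and did not pass (limma adjusted p = 0.135).

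NM_002568 was measured by probe A_32_P38136, with knockdown signals of 61267, 62917 and 29591 against control signals of 31103, 20411 and 21699. Replicate 3 was the lowest in the knockdown channel, where its value was below the control value of replicate 1, so the channels overlapped. Within each array knockdown was the higher, with log2 ratios of 0.98, 1.62 and 0.45, averaging 1.02 ± 0.59 (SD, n = 3), a 2.02-fold higher level (limma adjusted p = 0.0405). The other probes of NM_002568 had means of 1.14 and 0.77, of which the first passed (limma adjusted p = 0.0397 and 0.0695).

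A like pattern over arrays was seen for NM_003750, which has a single probe. Its signals were 2102, 1895 and 983 in knockdown RNA and 944, 649.8 and 772 in control RNA, with replicate 3 again the lowest of the knockdown values. The channels did not overlap. The log2 ratios of 1.16, 1.54 and 0.35 averaged 1.02 ± 0.61 (SD, n = 3), a 2.02-fold higher level (limma adjusted p = 0.0432).

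NM_004096 gave different answers from different probes. Its brightest probe, A_23_P115922, had signals of 4769, 4339 and 2894 in knockdown RNA against 2284, 2173 and 1875 in control RNA, without overlap. The log2 ratios were 1.06, 1.00 and 0.63, averaging 0.90 ± 0.24 (SD, n = 3), a 1.86-fold higher level (limma adjusted p = 0.0183). Probe A_24_P115621 of the same accession had -0.68, -0.043 and -0.87, with a mean of -0.53 (limma adjusted p = 0.103), and A_24_P4387 had a mean of 0.060. Averaged over its tested probes, NM_004096 had a mean of 0.14 and did not pass, so the rise rests on the brightest probe.

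The most even rise over arrays was that of NM_001968. Its brightest probe, A_23_P118649, had signals of 648, 588 and 696 in knockdown RNA and 378, 351 and 429.7 in control RNA. Every knockdown value was above every control value. Replicates 1, 2 and 3 gave log2 ratios of 0.78, 0.74 and 0.70, averaging 0.74 ± 0.041 (SD, n = 3), a 1.67-fold higher level (limma adjusted p = 0.0167). The rise was also called by both further tested probes of NM_001968. A_23_P118643 had 1.57, 1.08 and 1.30 with a mean of 1.32 (limma adjusted p = 0.0150), and A_24_P349560 had 0.42, 0.69 and 0.70 with a mean of 0.60 (limma adjusted p = 0.0271). The remaining probe, A_32_P176066, was not well above background in either channel of any array and was not tested.

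NM_001969 had signals of 883, 771 and 1040.2 in knockdown RNA and 451, 606 and 696 in control RNA. Knockdown and control signals did not overlap, and replicate 1 had the widest gap. Its log2 ratios were 0.97, 0.35 and 0.58, averaging 0.63 ± 0.31 (SD, n = 3), a 1.55-fold higher level (limma adjusted p = 0.0423). Its other tested probe had a mean of 0.38 and did not pass (limma adjusted p = 0.147).

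For NM_001417, signals of 5340, 4587 and 2641 in knockdown RNA stood against 3432, 2520.2 and 2154 in control RNA. The channels overlapped, through the low knockdown value of replicate 3. The log2 ratios were 0.64, 0.86 and 0.29, averaging 0.60 ± 0.29 (SD, n = 3), a 1.51-fold higher level (limma adjusted p = 0.0424). All 5 probes of NM_001417 had means above 0, between 0.45 and 1.01, and 3 of the 5 were called risen.

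NM_003295 had signals of 9612, 8860 and 8712 in knockdown RNA against 6349, 6675 and 6089 in control RNA, without overlap. The log2 ratios of 0.60, 0.41 and 0.52 averaged 0.51 ± 0.095 (SD, n = 3), a 1.42-fold higher level (limma adjusted p = 0.0304), the smallest change among the risen accessions. Its other probes had larger ratios and were also called. A_24_P179351 had a mean of 0.95 (limma adjusted p = 0.0291) and A_24_P306726 a mean of 1.08 (limma adjusted p = 0.0231).

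The largest fall was that of NM_001970. Its brightest probe had signals of 2780.4, 2385 and 3920.2 in knockdown RNA and 10480.3, 6737 and 7483 in control RNA, with no overlap. The arrays gave log2 ratios of -1.91, -1.50 and -0.93, averaging -1.45 ± 0.49 (SD, n = 3), equal to 0.366 of the control level (limma adjusted p = 0.0182), relative to the loess curve. The mean of this probe was -0.61 with median centring of the arrays (limma adjusted p = 0.142). It was -0.92 with centring on the tested probes (limma adjusted p = 0.0218). Probe A_24_P375609 of NM_001970 also fell, by log2 ratios of -2.07, -1.55 and -0.83 that averaged -1.48 (limma adjusted p = 0.0230). Both probes thus had the same order of arrays, with replicate 1 lowest and replicate 3 nearest to 0.

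NM_003757, with 1 probe, had signals of 367, 399 and 653 in knockdown RNA against 681, 1069 and 1348 in control RNA. The channels did not overlap, and both were highest in replicate 3. The log2 ratios of -0.89, -1.42 and -1.05 averaged -1.12 ± 0.27 (SD, n = 3), equal to 0.460 of the control level (limma adjusted p = 0.0162), the smallest adjusted p among the 44 accessions.

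NM_001967 had signals of 1003, 894 and 741 in knockdown RNA and 1398, 1931 and 2171 in control RNA. No knockdown value reached the lowest control value. The log2 ratios were -0.48, -1.11 and -1.55, averaging -1.05 ± 0.54 (SD, n = 3), equal to 0.484 of the control level (limma adjusted p = 0.0326). Its other probe, A_23_P121250, spread over both sides of 0 at 0.78, -0.12 and -1.01 on the log2 scale, averaging -0.12 (limma adjusted p = 0.833). With the mean of both probes NM_001967 did not pass.

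NM_013234 had signals of 6048, 6411 and 10129.9 in knockdown RNA and 12781, 10426 and 12837 in control RNA. Knockdown and control signals did not overlap, by a narrow gap between replicate 3 of the knockdown and replicate 2 of the control. The log2 ratios of -1.08, -0.70 and -0.34 averaged -0.71 ± 0.37 (SD, n = 3), equal to 0.612 of the control level (limma adjusted p = 0.0411), relative to the loess curve. With median centring of the arrays the mean of NM_013234 was 0.19. Its other probe had a mean of -0.22 and did not pass (limma adjusted p = 0.326).

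NM_001416 showed the smallest spread between arrays of all called accessions. Its brightest probe had signals of 1734, 1656 and 2228 in knockdown RNA against 2838, 2692 and 3539.9 in control RNA, without overlap. Replicates 1, 2 and 3 gave log2 ratios of -0.71, -0.70 and -0.67, averaging -0.69 ± 0.023 (SD, n = 3), equal to 0.618 of the control level (limma adjusted p = 0.0177), and median centring turned this mean to 0.088. All 4 probes of NM_001416 were called fallen. Probe A_23_P137103 had a mean of -0.74 (limma adjusted p = 0.0175), and A_24_P390793 had -0.59 (limma adjusted p = 0.0240). A_32_P135902 fell the most, at -1.22, -1.32 and -1.07 with a mean of -1.20 (limma adjusted p = 0.0142).

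NM_020365 has 1 probe, with signals of 214, 193 and 231 in knockdown RNA and 302, 256 and 382 in control RNA. The channels did not overlap. The log2 ratios were -0.50, -0.41 and -0.73, averaging -0.54 ± 0.16 (SD, n = 3), equal to 0.686 of the control level (limma adjusted p = 0.0318), relative to the loess curve. With median centring of the arrays the mean of NM_020365 was -0.044 (limma adjusted p = 0.898).

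**Figure D3:**
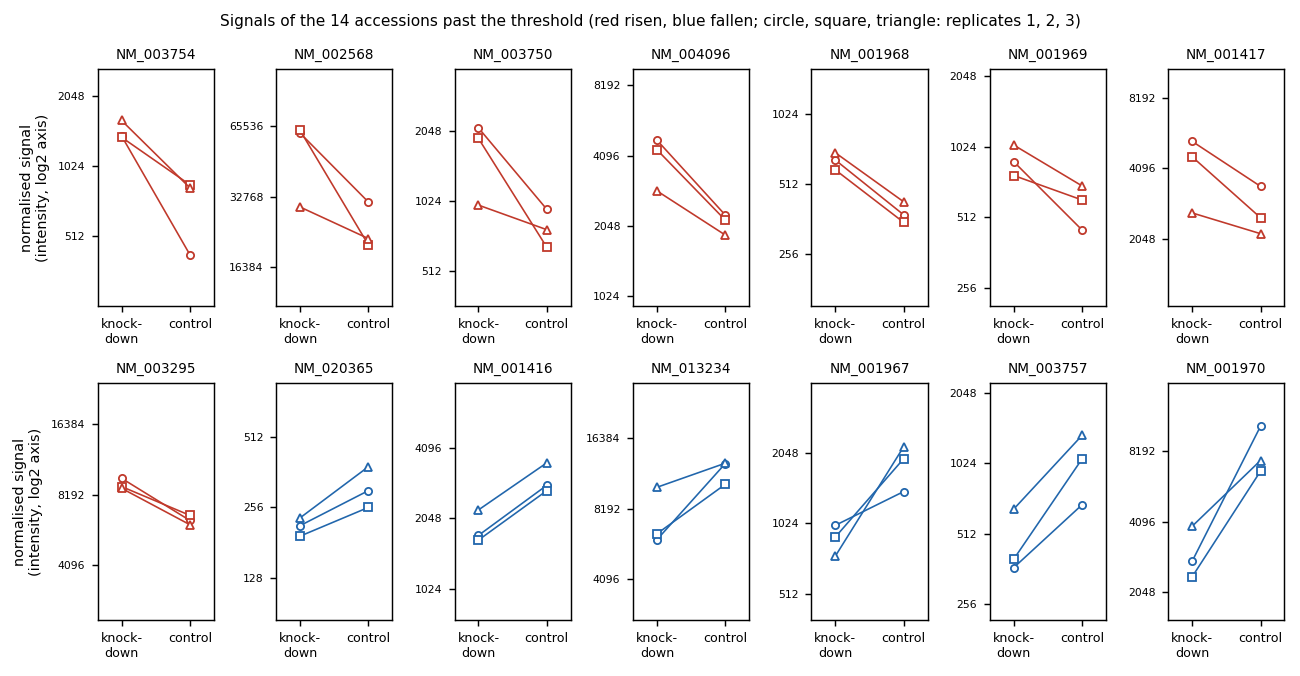
Normalised signals (log2 axis, intensity units) in knockdown and control RNA of the 14 called accessions, with a line for each array (circle, square and triangle for replicates 1, 2 and 3). Knockdown is higher on all 3 arrays in the 8 red panels and lower on all 3 in the 6 blue panels, after loess normalization. The channels overlap in the panels of NM_002568 and NM_001417.

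In 12 of the 14 called accessions the knockdown and control signals did not overlap over the 3 arrays, and over all 44 accessions this held for 19. Among all tested probes, 35.1% had channels that did not overlap. That share was not matched for brightness, and the 14 had been picked by a test on these same arrays. Each of the 14 lost its call without replicate 2, where 0 of all 18142 tested probes were called, and the limma adjusted p of the 14 then lay between 0.117 and 0.206. Without replicate 1, NM_001417, NM_001969, NM_002568, NM_003295, NM_003750, NM_013234 and NM_020365 lost theirs, and without replicate 3 NM_001969, NM_003295 and NM_020365 did. NM_001416, NM_001967, NM_001968, NM_001970, NM_003754, NM_003757 and NM_004096 therefore passed with either of replicates 1 and 3 left out.

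Of the 30 accessions that did not pass, 19 had means above 0 and 11 below, between -0.53 and 1.31. The 95% interval of the brightest probe's log2 ratio stayed within 1 of 0, a 2-fold change, for 26 of the 30. The 4 exceptions were NM_001418, NM_001402, NM_001961 and NM_003758, and their intervals leave room for larger changes.

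NM_001418 had the highest mean of all 44 accessions and did not pass in the reported setting. Its signals were 6199, 5469 and 5490 in knockdown RNA and 1061, 3464 and 3344 in control RNA. Knockdown and control signals did not overlap, and the control value of replicate 1 stood far below the others. The arrays gave log2 ratios of 2.55, 0.66 and 0.72, averaging 1.31 ± 1.07 (SD, n = 3) with a 95% interval of 0.31 to 2.31 (limma adjusted p = 0.0787). Under 8 of the 13 alternatives NM_001418 was called risen, with limma adjusted p of 0.00052 at normexp offset 0, 0.0172 with Agilent's processed signals, 0.00235 with an intensity trend in the variance and 0.0213 with the series table. The others were both centrings, the stricter filter on dim probes and the setting without replicate 1. Without replicate 1 its mean was 0.69 (limma adjusted p = 0.0274), so the size of its ratio rests on replicate 1 while its sign does not. NM_003758 had the same order, with 1.16, 0.16 and 0.36 and a mean of 0.56 (limma adjusted p = 0.128), or 0.26 without replicate 1.

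The other accessions with wide intervals differed between arrays in sign for the brightest probe. NM_001402 had signals of 29433, 28231 and 18165 in knockdown RNA against 8680.1, 17399 and 18301 in control RNA, with log2 ratios of 1.76, 0.70 and -0.011. Its mean was 0.82 ± 0.89 (SD, n = 3) with an interval of -0.024 to 1.66 (limma adjusted p = 0.151). Other probes of NM_001402 were above 0 on every array, A_32_P15320 at 2.2, 0.76 and 0.42 and A_32_P47701 at 0.38, 0.27 and 0.032. Probe A_32_P44316 had -0.22, 0.01 and -0.12. NM_001961 had signals of 1045, 1008 and 515 in knockdown RNA and 428, 451 and 633 in control RNA. Its log2 ratios of 1.29, 1.16 and -0.30 gave a mean of 0.72 ± 0.88 (SD, n = 3) with an interval of -0.12 to 1.55 (limma adjusted p = 0.188). In the brightest probe of both accessions replicate 3 alone lay below 0. Without replicate 3 both were called risen, NM_001402 with a mean of 1.23 (limma adjusted p = 0.0318) and NM_001961 with 1.22 (limma adjusted p = 0.00974). Leaving out replicate 1 instead gave means of 0.34 for NM_001402 and 0.43 for NM_001961, and neither passed.

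A further set lay short of the threshold with 1 sign on all arrays. NM_014239 had log2 ratios of -0.42, -0.45 and -0.27, a mean of -0.38 (limma adjusted p = 0.0555). NM_001415 had -0.86, -0.26 and -0.47, a mean of -0.53 (limma adjusted p = 0.0602). Counting these, 7 of the 30 accessions had an adjusted p under 0.1, the others being NM_032025 with a mean of 0.38, NM_003908 with 0.44, NM_014740 with -0.46, NM_004094 with -0.34 and NM_001418. NM_001415 was called fallen under 3 of the 13 alternatives and NM_004094 under 4, and without replicate 1 NM_014740 was called fallen at -0.60 (limma adjusted p = 0.0416).

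For the brightest probe, replicate 3 had the opposite sign of the other arrays in several accessions. NM_001412 had log2 ratios of -0.65, -0.76 and 0.23, averaging -0.39 ± 0.54 (SD, n = 3, limma adjusted p = 0.258). NM_001404 had 0.90, 0.44 and -0.082, a mean of 0.42, NM_016091 had 0.74, 0.37 and -0.12, a mean of 0.33, and NM_002094 had 0.56, 0.38 and -0.086, a mean of 0.28. None of these passed, with limma adjusted p between 0.199 and 0.258. With replicate 3 left out NM_001412 was called fallen at -0.70 (limma adjusted p = 0.0272) and NM_001404 was called risen at 0.67 (limma adjusted p = 0.0496), while NM_016091 at 0.56 and NM_002094 at 0.47 still did not pass (limma adjusted p = 0.0678 and 0.0819). The further probes of NM_001404 were above 0 on every array, at 2.53, 0.87 and 0.35 and at 1.54, 0.38 and 0.31. That of NM_016091 had 0.8, 0.36 and -0.033, and those of NM_001412 had -0.5, -0.57 and 0.4 and 0.041, -0.2 and 0.13. Over the 44 accessions the median log2 ratio was 0.28, 0.12 and -0.034 on replicates 1, 2 and 3, where all tested probes had 0.024, 0.025 and 0.017.

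Some bright accessions had narrow intervals around 0 for their brightest probe. NM_001568 had log2 ratios of 0.067, 0.11 and -0.078, a mean of 0.032 with a 95% interval of -0.22 to 0.28. NM_001959 had -0.0061, -0.17 and 0.054, a mean of -0.042 with an interval of -0.30 to 0.22. NM_006360 had -0.093, -0.18 and -0.088, a mean of -0.12 with an interval of -0.36 to 0.12. The other probes of NM_001568 had means of 0.48, with an interval of -0.011 to 0.98, and -0.29, with an interval of -0.56 to -0.019. Its probes together thus bound its change less closely. The other probe of NM_006360 had -0.31, -0.3 and -0.21, a mean of -0.27 with an interval of -0.51 to -0.032 (limma adjusted p = 0.109). That of NM_001959 had a mean of -0.014 with an interval of -0.28 to 0.25. The position of these accessions near 0 is relative to the loess curve. With median centring of the arrays NM_001959 was called risen with a mean of 0.86, NM_001568 had 0.83 and NM_006360 had 0.69. Centring on the tested probes gave 0.51 for NM_001568 and 0.55 for NM_001959, both then called risen (limma adjusted p = 0.0485 and 0.0294). NM_006360 had 0.37 in that setting and did not pass (limma adjusted p = 0.0885).

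The remaining accessions that did not pass had means between -0.40 and 0.35. NM_022170 had a mean of 0.35, NM_182917 of 0.20, NM_003907 of 0.13, NM_004095 and NM_003760 of 0.12, and NM_004730 of 0.11. NM_003755 had 0.076, NM_013302 had 0.056 and NM_003756 had 0.048. Below 0 lay NM_015904 with -0.049, NM_005801 with -0.083, NM_001414 with -0.14 and NM_003753 with -0.40. Of these 13 accessions NM_022170, NM_182917 and NM_003753 had 1 sign on all 3 arrays.

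The arrays ordered the accessions in a like way. Replicates 1 and 2 had Pearson's r of 0.80 and Spearman's rho of 0.86 across the 44 accessions. For replicates 1 and 3 the values were 0.66 and 0.65, and for replicates 2 and 3 they were 0.68 and 0.63. These values describe 44 accessions measured on arrays that share a slide and a dye orientation. Over all tested probes the same pairs of arrays, in that order, had r of 0.74, 0.64 and 0.70. Their rho was 0.69, 0.58 and 0.66. One sign on all 3 arrays was found for 26 of 44 accessions, 14 above and 12 below 0, or 59.1%, against 58.4% of all tested probes. Ratios of the 44 accessions were wider than those of all tested probes on each array, with SDs of 0.84, 0.67 and 0.52 against 0.61, 0.48 and 0.43 on replicates 1, 2 and 3. Their spread between arrays was wider too, with a median SD of 0.30 against 0.19. Neither spread was compared with that of probes of like brightness, although 29 of the 44 accessions lay in the brightest class. Replicate 1 had the ratio farthest from 0 in 22 accessions, or 50%, where it did so in 44.9% of all tested probes.

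Different probes of 1 accession were compared where the array allowed it. The array carries a single probe for 18 accessions, and 24 accessions had at least 2 tested probes. In 20 of the 24, all tested probes had means of 1 sign, and in the other 4, NM_004096, NM_001402, NM_001568 and NM_003908, they had both. No accession had both a risen and a fallen probe. Over all 82 tested probes of the accessions 15 rose and 10 fell, or 30.5%, against 18.4% of all tested probes, a background not matched for brightness. Of the 11 called accessions with a further tested probe, 6 had at least 1 more probe called in the same direction, namely NM_001416, NM_001417, NM_001968, NM_001970, NM_002568 and NM_003295. Probes of 1 accession share their message and may overlap in sequence, so they are not independent.

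The spread between probes was largest for NM_004096, with means from -0.53 to 0.90, and NM_001402, with means from -0.11 to 1.12. NM_001404 also varied, from 0.42 for its brightest probe to 1.25 for A_24_P287198, whose log2 ratios were 2.53, 0.87 and 0.35. NM_005801, NM_001970, NM_003760, NM_016091 and NM_001959 had probes that differed by at most 0.043 in their means. Which transcripts of the monkey each human probe detects was not tested.

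**Figure D4:**
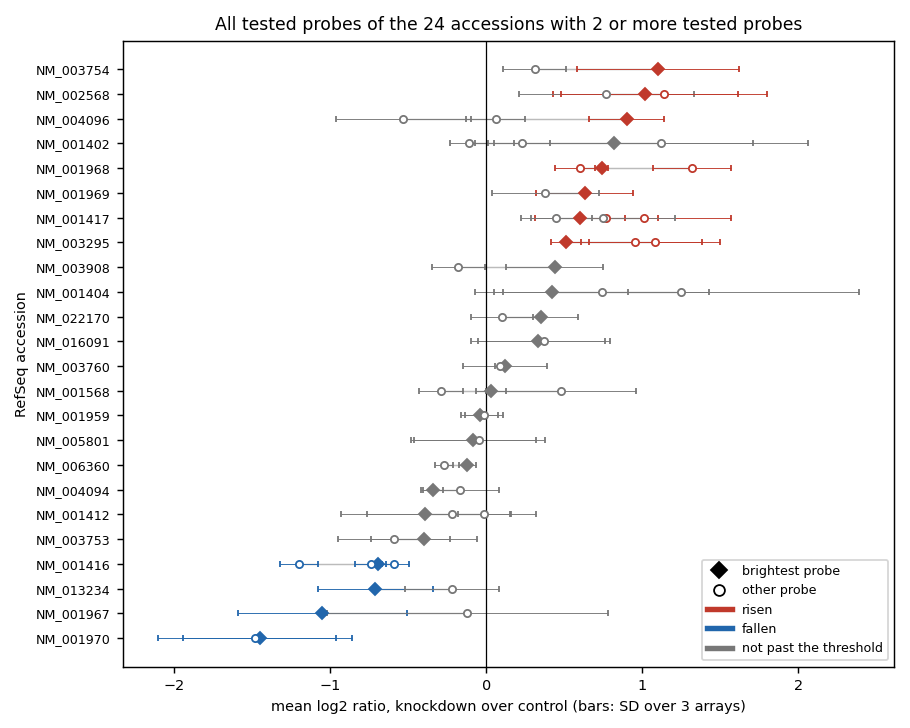
Mean log2 ratio of knockdown over control with its SD over 3 arrays for every tested probe of the 24 accessions with at least 2 tested probes, where a diamond marks the brightest probe and colour the call. All 4 probes of NM_001416 lie below 0 and all 5 of NM_001417 above, while those of NM_004096 run from -0.53 to 0.90. Under median centring the brightest probe of NM_001416 lay at 0.088.

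The direction of a change depends on where the zero of each array is placed. Loess sets it at the middle of probes of like brightness, and median centring sets it at the middle of all probes, most of them dim. Median centring moved the median log2 ratio of all tested probes from 0.018 to 0.30 and that of the 44 accessions to 0.79. In that setting 19 accessions rose and 0 fell in limma, and among accessions with an unadjusted p under 0.05, 30 lay above 0 and 1 below. Of all tested probes 19.9% were called in that setting, and 98.4% of those calls were upward. Centring on the tested probes alone, which brought their median to -0.0099, gave 20 risen and 2 fallen accessions, with a median of 0.48, and 74.2% of all calls upward. There 23.2% of all tested probes were called. The 8 risen accessions passed in both of these settings. Of the 6 fallen ones NM_001970 and NM_003757 passed with centring on tested probes, and none passed with median centring, where NM_001416 and NM_013234 lay above 0. The others lay nearer to 0 with median centring than with loess, NM_001970 at -0.61, NM_003757 at -0.46, NM_001967 at -0.33 and NM_020365 at -0.044.

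**Figure D5:**
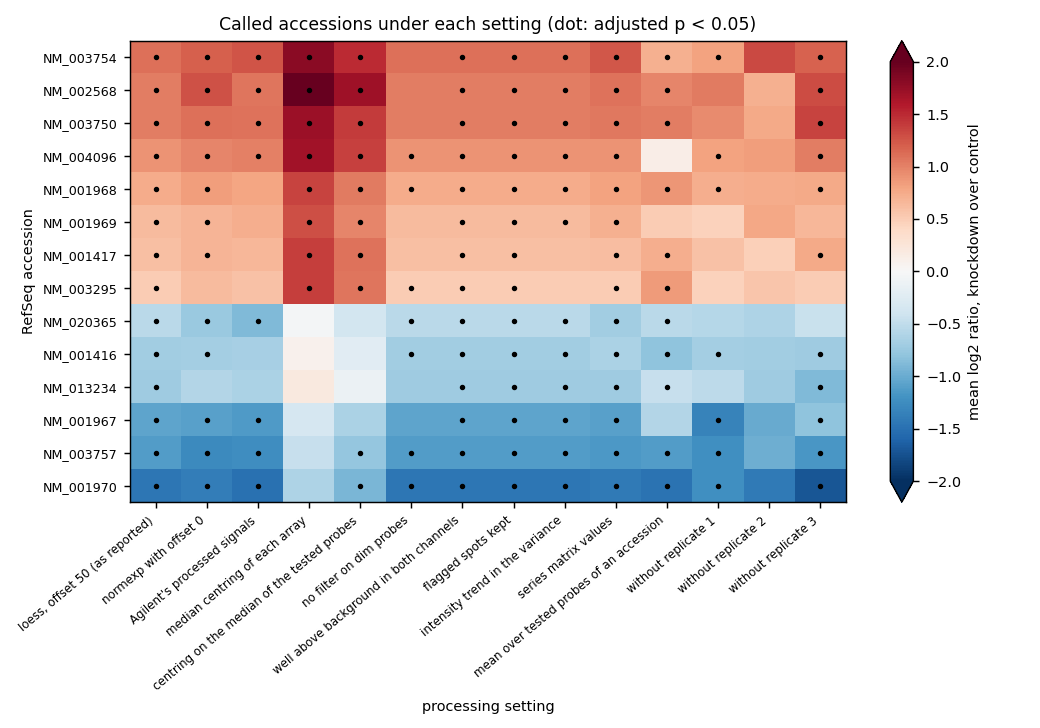
Mean log2 ratio of knockdown over control (colour) of the 14 called accessions under the reported setting and 13 alternatives, where a dot marks an adjusted p under 0.05. The rows of the 8 risen accessions stay above 0 throughout. NM_001416 and NM_013234 turn above 0 with median centring, and no dot is present without replicate 2.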

How the data were processed

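Heavy polysome RNA of knockdown and control cells was compared on 3 Agilent 2-colour arrays of design 014850. The authors extracted spot intensity values with Agilent Feature Extraction, version 10.9.1.1 per the file headers and 10.9 per the submitters' processing notes, which also name limma. The deposited log10 ratio of Cy5 over Cy3 equals that of the processed signals within 1e-04 or is 0. The authors' series table holds log2 ratios of unstated scale, centring and direction, which followed loess-normalized Cy5 over Cy3 with Pearson's r of 0.995, 0.993 and 0.993 and had medians of 0, 0.01 and 0.01.

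Median spot signals were corrected with normexp (offset 50) and normalized by loess within arrays in limma 3.58.1 under R 4.3.3, with control spots at weight 0. Between 142 and 150 of 43376 probe spots an array were left out for outlier flags, and 0 were saturated. The log ratios of a probe's spots were averaged. Testing was limited to probes for which at least 0.5 of its spots were well above background on all arrays in either channel. Printed signals were also quantile-normalized on average intensity, which leaves ratios unchanged. lmFit and eBayes on an intercept gave 2-sided tests, adjusted by Benjamini-Hochberg over all 18142 tested probes. The test was also run on simulated independent noise with added shifts. That simulation held no dye or slide effect, so it cannot show how these bear on the calls. An exact sign-flip test cannot go below p = 0.25 with 3 arrays, and their number limits the precision. The offset pulls ratios of dim probes toward 0.

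The members and lists were chosen with earlier results of these data known. The planned role groups, other translation genes and cell type markers needed gene symbols and were not used. Every member past the threshold is named with its values, and the others by their means.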

Additional observations from a re-analysis of the deposited data

How the results depend on the processing

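The 14 called accessions kept their sign under each of 13 alternatives, except that median centring gave 0.19 for NM_013234 and 0.088 for NM_001416. NM_020365 kept its sign there only at -0.044 (limma adjusted p = 0.898). Leaving out an array could not turn the signs of the 14, since each had 1 sign on all arrays. The 8 risen and 6 fallen accessions became 5 risen and 5 fallen with Agilent's processed signals, 19 and 0 with median centring, 20 and 2 with centring on the tested probes, and 3 risen and 4 fallen without a filter on dim probes, where 41000 probes were tested. Of all features, 26.3%, 19.9%, 23.2% and 5.03% were called in these settings, in that order, against 18.4% in the reported setting. Only 8 of the 14 calls were kept with Agilent's processed signals, where NM_001416, NM_001417, NM_001968, NM_001969, NM_003295 and NM_013234 did not pass. NM_003295 and NM_013234 also lost theirs at normexp offset 0, NM_003295 and NM_001417 under the intensity trend, and NM_001967, NM_001969 and NM_004096 with the mean over an accession's probes. No filter kept 7 calls, without NM_001417, NM_001967, NM_001969, NM_002568, NM_003750, NM_003754 and NM_013234. Median centring kept the 8 risen accessions and no fallen one, and centring on the tested probes kept 10 calls. Of the 30 accessions that had not passed, 12 passed under none of the 13 alternatives, 10 passed under a centring alone and the others under further settings. Leaving out 1 replicate gave 0 to 9 risen and 0 to 6 fallen, the 0 in both cases without replicate 2. The median log2 ratio of the accessions moved to 0.79 and 0.48 with the 2 centrings and lay between 0.083 and 0.15 with 1 replicate left out. Over all features, the 1763 risen became 2888 with normexp at offset 0, 2809 with Agilent's processed signals, 3559 with median centring, 3125 with centring on the tested probes, 1066 without a filter and 3067 under an intensity trend. The 1568 fallen became 2283 at offset 0, 1954 with Agilent's processed signals, 59 with median centring, 1088 with centring on the tested probes, 997 without the filter and 2482 with the trend. Leaving out 1 replicate gave 0 risen and 0 fallen features without replicate 2, where 2228 and 2010 had an unadjusted p under 0.05, and up to 1502 and 1419 otherwise. Beyond the number of features tested, the cause of these differences was not tested.

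Other signs that turned belonged to accessions that had not passed. With median centring NM_005801 had 0.88, NM_001412 0.24, NM_001415 0.041, NM_001414 0.48, NM_014239 0.11, NM_003753 0.36, NM_006360 0.69, NM_014740 0.14, NM_015904 0.33 and NM_001959 0.86. With centring on the tested probes NM_005801 had 0.56, NM_001414 0.16, NM_003753 0.043, NM_006360 0.37, NM_015904 0.021 and NM_001959 0.55. NM_005801 had 0.11 and NM_001959 0.096 at offset 0, and NM_001959 had 0.012 with Agilent's processed signals. With each replicate left out in turn, NM_005801 ranged from -0.31 to 0.077, NM_001414 from -0.29 to 0.060, NM_001568 from -0.0059 to 0.087, NM_003756 from -0.062 to 0.25, NM_015904 from -0.14 to 0.040, NM_001959 from -0.090 to 0.024, NM_013302 from -0.069 to 0.13, NM_004730 from -0.12 to 0.29 and NM_003755 from -0.096 to 0.19. No paired analysis was possible because each array already holds its own pair and gives 1 ratio, and slide and dye were the same on all arrays.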
